A study of Marmota monax with 203 samples.

Results

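The genes examined were 10 of the 17587 genes measured in the liver biopsies of woodchucks chronically infected with woodchuck hepatitis virus (WHV): the fibrillar collagens COL1A1, COL1A2 and COL3A1, the basement membrane collagen COL4A1, the small proteoglycans LUM and DCN, the stellate cell genes ACTA2 and PDGFRB, the protease inhibitor TIMP1 and the collagen cross-linking enzyme LOXL2. They were chosen by gene symbol, and 10 of 10 were found. The animals were born in captivity and infected as neonates with the strain WHV7-11, and all of them, controls included, carried the virus. They received either placebo or woodchuck interferon alpha (wIFN-α, labelled IFN-alpha) 3 times a week for 15 weeks, at 20 µg in weeks 0 and 3 and at 100 µg in weeks 7, 11 and 15, with follow-up at weeks 19 and 23. On-treatment biopsies were taken about 6 hours after a dose. The sample labels count the post-treatment-start weeks 1 higher than the study weeks used here. Of 164 biopsies, 149 entered the comparisons, 81 from 12 placebo animals and 68 from 11 wIFN-α animals. The wIFN-α animal M1004, which the study set aside for its low and falling viral markers before treatment, and 8 biopsies taken at other times entered no comparison. Some of those 8 were labelled as taken from animals that had died or were euthanized.

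In liver, most fibrillar collagen is made by hepatic stellate cells and portal fibroblasts, mesenchymal cells that during chronic injury become contractile, switch on ACTA2 (smooth muscle actin) and lay down scar matrix. Type I and type III collagen form the fibres, LUM and DCN coat them and set their spacing, LOXL2 cross-links them, and TIMP1 blocks the metalloproteinases that would degrade them. PDGFRB is the platelet-derived growth factor receptor of these cells, and COL4A1 belongs to the sheet-like collagen of the basement membranes around vessels and bile ducts. Skeletal muscle, connective tissue and skin hold the same fibrillar collagens in abundance.

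Several biopsies stood apart from the rest before any group was compared. The skeletal muscle myosin heavy chain MYH2 fell into separate ranges, at 4.11 CPM (read counts scaled to a common library size) or less in 89 biopsies (low-MYH2 biopsies) and at 30.6 CPM or more in 60, with none between. Of 149 biopsies, 24 had over 1% of their reads on a list of 24 skeletal muscle genes, against a median of 0.0464%. That share was above 0 in 89 of 89 low-MYH2 biopsies, where it reached 0.0626%, and its lowest value in the other 60 was 0.0565%. Low MYH2 thus does not mark a biopsy without reads on the list, and whether those reads came from muscle was not tested. A list of 12 skin genes (such as KRT1, KRT5 and LOR), summed, was over 100 CPM in 11 biopsies, 10 of them placebo. The wIFN-α biopsy of F1013 at week 3 had 881 CPM summed over 10 interferon-stimulated genes, whereas the other 44 treated on-treatment biopsies had 7201 CPM or more and placebo biopsies up to 1505. The hepatocyte genes summed to medians of 70520 and 68650 CPM in the arms at week 15, and the depth was 12072840 to 84805845 reads on genes per biopsy (median 28754894). The runs of the placebo biopsy of M1008 at week 15, which were summed, differed from each other far more than those of any other biopsy, with a chi-square per degree of freedom of 130.9 against 29.9 for the next, F1022 at week 19.

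MYH2 was unevenly spread over the arms, and the fibrillar collagens moved with it. During treatment 32 of 55 placebo biopsies (58.2%) were over 10 CPM of MYH2 compared with 13 of 45 wIFN-α biopsies (28.9%), whereas at weeks -3, 19 and 23 the share was 6 of 26 (23.1%) and 9 of 23 (39.1%). By week, MYH2 was over that level in 6 of 12 placebo and 3 of 11 wIFN-α biopsies at week 0, in 9 of 12 and 3 of 9 at week 3, in 6 of 12 and 1 of 9 at week 7, in 8 of 10 and 3 of 8 at week 11, and in 3 of 9 and 3 of 8 at week 15. MYH2 itself passed the test at no week (edgeR quasi-likelihood test with Benjamini-Hochberg adjustment), and its mean on-treatment difference was -0.37 (log2, SE 0.79), whereas limma-voom gave -2.65 with an adjusted p of 0.038.

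COL1A1 had a median of 23.2 CPM in the 89 low-MYH2 biopsies (range 13.5 to 251) and of 181 CPM in the other 60 (28.4 to 5628), a ratio of 7.79. The ranges overlapped, but 25 of those 60 biopsies were above the highest low-MYH2 biopsy. For COL1A2 the medians were 30.4 and 151 CPM (ratio 4.97) and for COL3A1 173 and 359 CPM (ratio 2.08). DCN, LUM and ACTA2 had ratios of 2.28, 2.02 and 1.87. The ratio was 1.31 for TIMP1, 1.19 for LOXL2, 1.04 for PDGFRB and 0.968 for COL4A1, so these 4 genes differed least between the sets of biopsies. In placebo biopsies alone, the COL1A1 medians were 22.6 and 261 CPM (ratio 11.5). Across all 149 biopsies, COL1A1 and MYH2 had a Spearman correlation of 0.67, which was -0.03 within the 89 low-MYH2 biopsies and 0.30 within the other 60. These points share animals and libraries, so the correlations are descriptions only. Because a bulk biopsy mixes tissues, fewer cells of a type and less RNA per cell cannot be told apart in any value given here.

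**Figure D1:**
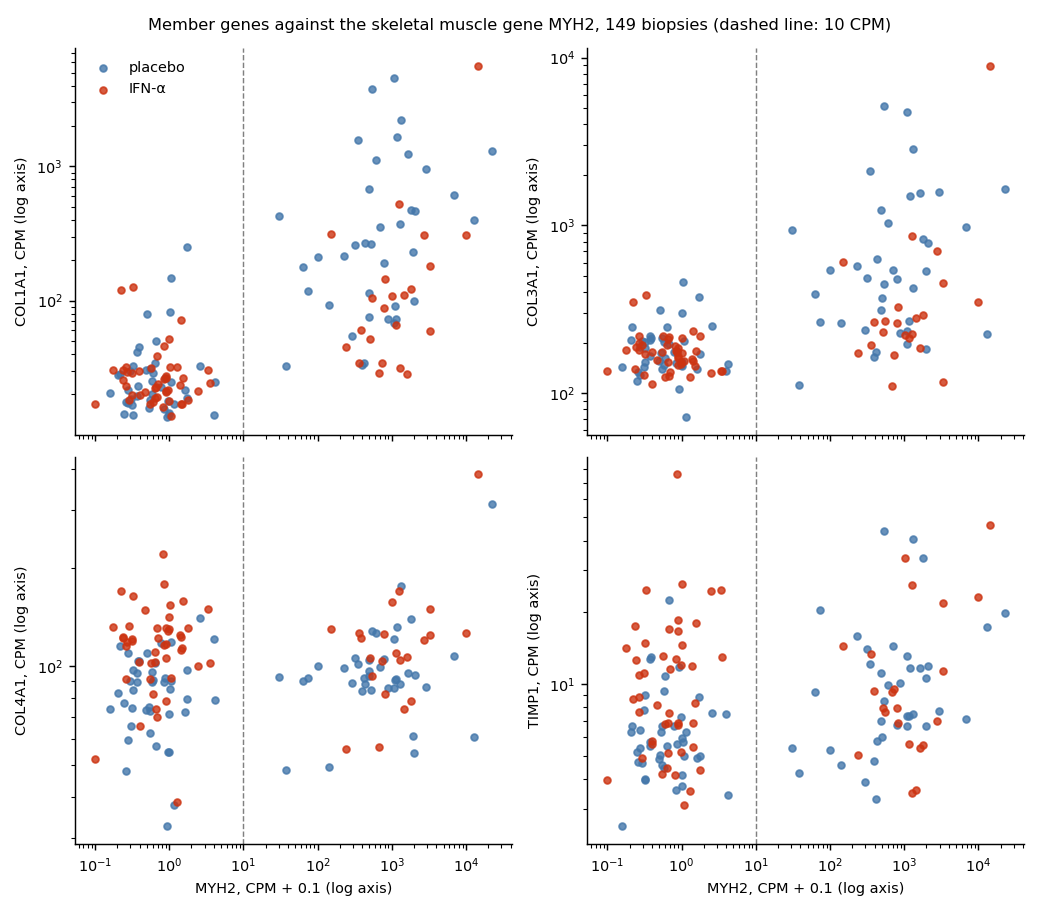
COL1A1, COL3A1, COL4A1 and TIMP1 (CPM, log axis) against MYH2 (CPM + 0.1, log axis) in each of 149 biopsies, placebo in blue and wIFN-α in red. To the right of the dashed line at 10 CPM the fibrillar collagens spread upward, with COL1A1 reaching 5628 CPM, whereas COL4A1 and TIMP1 cover about the same range on both sides.

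The resting order of the 10 genes is given by the 43 placebo biopsies at or under 10 CPM of MYH2, on a per-length scale (CPM per 1000 bases of transcript). COL3A1 was the most abundant at a median of 25.6, followed by DCN at 18.4 and COL4A1 at 12.2. LUM (4.45), PDGFRB (3.89), TIMP1 (3.19), ACTA2 (2.82), COL1A2 (2.72), COL1A1 (2.33) and LOXL2 (1.86) formed a lower group. The ranges of every pair of neighbours in this order overlapped. On the same scale the hepatocyte gene ALB, which encodes albumin, had a median of 14130. The type III collagen median was thus above both type I medians, although the ranges of COL3A1 (10.5 to 67.8) and COL1A1 (1.39 to 25.9) still overlapped. The highest COL1A1 value came from the week 7 biopsy of M1009, which carried 4749 CPM of skin genes. The order depends on the lengths behind the deposited values, which were 9727 bases for COL1A1, 11151 for COL1A2 and 6816 for COL3A1.

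**Figure D2:**
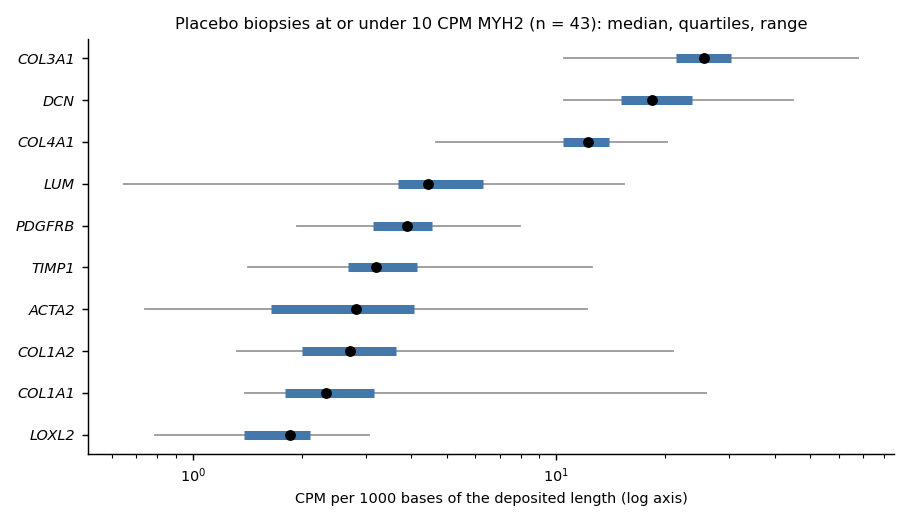
Level per transcript length (CPM per 1000 bases, log axis) of the 10 genes in 43 placebo biopsies at or under 10 CPM of MYH2, with the median as a dot, the quartiles as a bar and the range as a line. COL3A1, DCN and COL4A1 lie above the other 7 genes, and neighbouring genes overlap.

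The question of the weekly comparison was whether liver matrix genes differed between wIFN-α animals and time-matched placebo animals. A gene was called when its adjusted p was under 0.05 and its fold change over 1.5. At weeks 0, 3, 7, 11 and 15, 2, 4, 6, 1 and 3 of the 10 genes were called, where 18.5, 10.8, 21.6, 20.5 and 22.3% of all genes tested were called. At week 0 these were 10.3% higher and 8.15% lower. At weeks -3, 19 and 23, 0 of the 10 genes and 0% of all genes were called by edgeR. Of the 10 genes, 1, 8 and 1 had an unadjusted p under 0.05 at those weeks. Of all genes, 130, 1859 and 2416 did, and DESeq2 called 0, 87 and 35 genes and limma-voom 0 at each. The fibrillar collagens, LUM, DCN and ACTA2 were lower wherever they were called and TIMP1 was higher. With the animal as a block over all weeks (limma-voom), the called genes were TIMP1 alone at week 0, LUM alone at week 3, none at week 7, ACTA2 alone at week 11 and TIMP1 alone at week 15, where 18.6, 10.6, 18.6, 18.7 and 20.6% of all genes were called. With 5 to 12 animals a group, the p-values measure the spread between these animals.

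**Figure D3:**
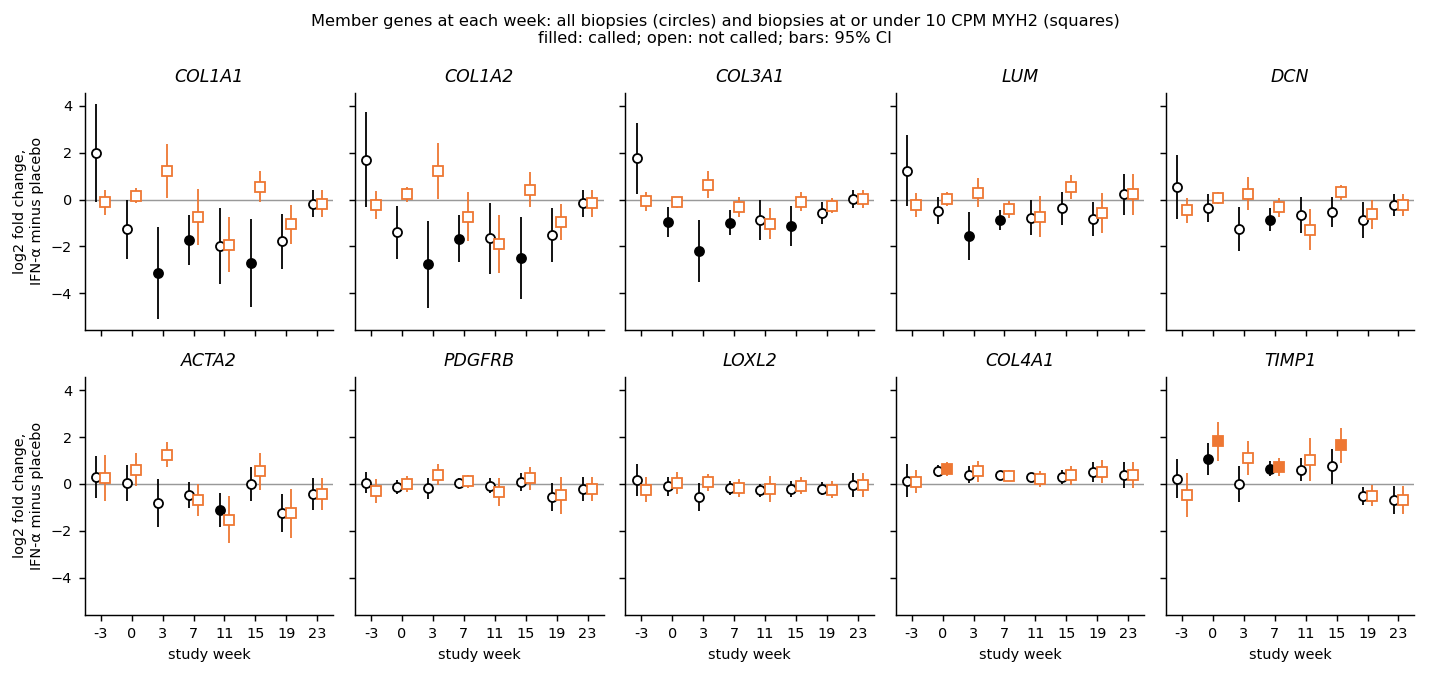
Log2 fold change (wIFN-α minus placebo, with 95% confidence interval) of each gene at 8 study weeks, in all biopsies (black circles) and in biopsies at or under 10 CPM of MYH2 (orange squares), filled where called. The black circles of COL1A1, COL1A2 and COL3A1 dip to -3.15, -2.76 and -2.19 at week 3, no orange square of these genes is filled, and the orange squares of TIMP1 are filled at weeks 0, 7 and 15.

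COL1A1 encodes the major chain of type I collagen. At week 3 it ranged from 14.3 to 4569 CPM in placebo (median 787) and from 20.9 to 528 CPM under wIFN-α (median 31.5), a log2 difference of -3.15 (SE 1.00, adjusted p = 0.030, edgeR). The groups overlapped, with 7 of 12 placebo biopsies above the highest treated one and 0 of 9 treated biopsies above the placebo median. At week 7 it ranged from 21.7 to 430 CPM in placebo (median 131) and from 19.7 to 120 CPM under wIFN-α (median 27.6), a difference of -1.73 (SE 0.55, adjusted p = 0.013). Again 0 of 9 treated biopsies exceeded the placebo median. At week 15 the medians were nearly level, 32.5 CPM in placebo (14.1 to 1655) and 34.2 CPM under wIFN-α (17.6 to 87.6), with 5 of 8 treated biopsies above the placebo median, yet the fitted difference was -2.71 (SE 0.96, adjusted p = 0.031). That call rested on the placebo biopsy of F1021, which held 1655 CPM of COL1A1, 1192 CPM of MYH2 and 2363 CPM of skin genes. Without it the COL1A1 difference was -1.15 (adjusted p = 0.193), and without wIFN-α animals M1002, M1003, F1013 or F1018 it was -2.71, -2.68, -2.63 and -2.60 with adjusted p of 0.050 to 0.054. Without M1008, the difference for COL1A1, week 15, was -2.86 (adjusted p = 0.024), and the same 3 collagens were called. COL1A1 was not called at week 0 (-1.27, SE 0.65, adjusted p = 0.137) or week 11 (-1.99, SE 0.83, adjusted p = 0.066), but it was called at week 0 without F1023 (-1.98, adjusted p = 0.013) and at week 11 without M1012, whose biopsy held 306 CPM of COL1A1 (-3.05, adjusted p = 0.0054).

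COL1A2, the second chain of the same fibre, gave the same calls. Its medians at week 3 were 796 CPM in placebo (18.0 to 3945) and 59.9 CPM under wIFN-α (21.8 to 564), and its differences were -2.76 at week 3 (SE 0.95, adjusted p = 0.045), -1.67 at week 7 (SE 0.51, adjusted p = 0.010) and -2.49 at week 15 (SE 0.89, adjusted p = 0.031). At week 15 its medians were 44.1 and 42.9 CPM, and without F1021 the difference was -1.15 (adjusted p = 0.168). The week 3 call of COL1A2 was lost without any of 8 of the 9 treated animals, with differences of -2.97 to -2.61, and its week 15 call also without M1003, F1013 or F1018.

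COL3A1, the collagen of fine reticular fibres, was called at the most weeks of the collagens among the 10 genes, with week 11 added when M1012 was left out (-1.33). At week 0 it ranged from 139 to 829 CPM in placebo (median 196) and from 116 to 349 CPM under wIFN-α (median 138), a difference of -0.95 (SE 0.32, adjusted p = 0.024). It differed by -2.19 at week 3 (SE 0.68, adjusted p = 0.027), with medians of 1273 and 221 CPM. At week 7 the difference was -0.98 (SE 0.27, adjusted p = 0.0053), with medians of 337 and 187 CPM. At week 15 it was -1.12 (SE 0.44, adjusted p = 0.047), with medians of 247 and 183 CPM, and -0.58 without F1021 (adjusted p = 0.136). The groups overlapped at each of these weeks. The week 3 calls of the fibrillar collagens were also fragile: without wIFN-α animal F1020 or F1022 none of the 10 genes was called at that week (adjusted p of COL3A1 0.051 and 0.050), without M1002 only COL3A1 was, and without M1007, F1013 or F1014 COL1A1 and COL3A1 were. The week 15 call of COL3A1 was also lost without any of 9 other animals, with differences of -1.15 to -1.05.

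**Figure D4:**
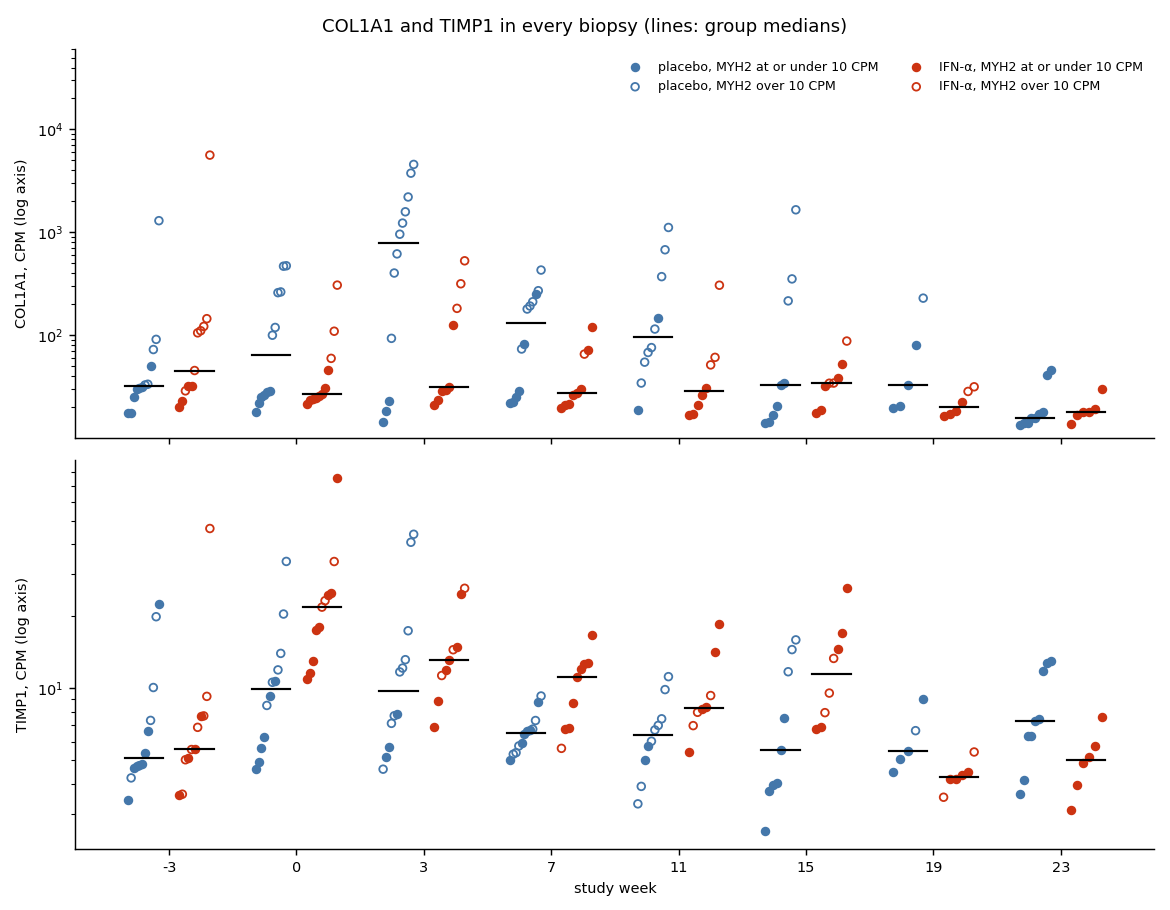
COL1A1 (top) and TIMP1 (bottom) in every biopsy (CPM, log axis) by study week, placebo in blue and wIFN-α in red, with group medians as lines and open symbols for biopsies over 10 CPM of MYH2. Nearly all COL1A1 values over 100 CPM are open symbols, and most of those are placebo biopsies during treatment, whereas the filled TIMP1 symbols of the treated group lie above the filled placebo symbols at week 0 and overlap them at week 15, where 3 of 5 are above the highest placebo one.

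Of the small proteoglycans, LUM (lumican) was called at weeks 3 and 7. Its week 7 values ran from 11.7 to 44.3 CPM in placebo (median 17.5) and from 6.34 to 16.3 CPM under wIFN-α (median 11.5), a difference of -0.88 (SE 0.22, adjusted p = 0.0025). At week 3 the LUM difference was -1.56 (SE 0.53, adjusted p = 0.041), with medians of 42.4 and 12.8 CPM, a call lost without M1002, M1007, F1013, F1014, F1020 or F1022 (-1.60 to -1.47). DCN (decorin) was called at week 7 alone, where it ran from 34.7 to 205 CPM in placebo (median 77.2) and from 29.6 to 58.2 CPM under wIFN-α (median 40.6), a difference of -0.86 (SE 0.25, adjusted p = 0.0073). The groups overlapped for both genes. At week 15 the differences were -0.37 for LUM and -0.52 for DCN and neither was called. At week 11 both were called once M1012 was left out, at -1.10 and -1.16, and DCN was called at week 3 without that animal (-1.58).

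The stellate cell genes were called at 1 week at most. ACTA2 was called at week 11, where it ran from 4.29 to 22.9 CPM in placebo (median 16.2) and from 2.04 to 17.4 CPM under wIFN-α (median 4.63), a difference of -1.13 (SE 0.37, adjusted p = 0.022). At week 15 the medians lay the other way, at 5.36 CPM in placebo and 7.42 CPM under wIFN-α, with a fitted difference of 0.00. ACTA2 was called at week 7 without M1002 (-0.70). ACTA2 shares near-identical coding sequence with the other actins, among them the skeletal muscle actin ACTA1, so reads could be split between them and its values are uncertain where muscle was present. PDGFRB was called at no week: its on-treatment medians lay between 23.5 and 30.1 CPM in placebo and between 24.9 and 30.9 CPM under wIFN-α. LOXL2 was also called at no week, and its widest gap was at week 3, with medians of 16.8 and 10.2 CPM.

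COL4A1 went the opposite way from the fibrillar collagens. At week 0 it ranged from 54.7 to 139.8 CPM in placebo (median 90.4) and from 91.3 to 178 CPM under wIFN-α (median 124), a difference of 0.55 (SE 0.13, adjusted p = 0.0026). At week 7 the ranges were 79.3 to 118 CPM (median 92.1) and 106 to 169 CPM (median 122), a difference of 0.36 (SE 0.08, adjusted p = 0.0013). The adjusted p also passed at week 11 (0.31, adjusted p = 0.010), but none of these changes reached 1.5-fold, so they were not called, except that COL4A1 at week 0 was called without M1002 (0.59). Treated biopsies were above the placebo median in 11 of 11, 8 of 9, 9 of 9, 8 of 8 and 7 of 8 cases at weeks 0, 3, 7, 11 and 15. The groups overlapped at each week.

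TIMP1 was called at weeks 0 and 7. At week 0 it ranged from 4.59 to 33.9 CPM in placebo (median 9.96) and from 10.9 to 75.7 CPM under wIFN-α (median 21.8), a difference of 1.08 (SE 0.35, adjusted p = 0.018), with 11 of 11 treated biopsies above the placebo median. Without wIFN-α animal M1012 this was 0.76 (adjusted p = 0.057). At week 7 it ranged from 5.02 to 9.29 CPM in placebo (median 6.54) and from 5.62 to 16.8 CPM under wIFN-α (median 11.2), a difference of 0.65 (SE 0.17, adjusted p = 0.0029), and without M1007 it was 0.53, under 1.5-fold. At week 15 the medians were 5.52 and 11.4 CPM and 8 of 8 treated biopsies exceeded the placebo median, but the difference of 0.76 (SE 0.38) had an adjusted p of 0.123. At week 3, where the ranges were 4.60 to 43.9 CPM and 6.89 to 26.2 CPM, it was -0.01. At week 11 TIMP1 was not called (0.60, adjusted p = 0.069), except without F1013 (0.68).

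The check against MYH2 split the 10 genes. In the low-MYH2 biopsies, at or under 10 CPM, a level chosen after the data were seen, 2 of the 10 genes were called at week 0 (of all genes, 17.9%), 1 at week 7 (20.6%) and 1 at week 15 (22.5%). At week 11, where 2 placebo and 5 treated biopsies were left, 0 of 10 were called and 8.89% of all genes. At week 3, with 3 placebo and 6 treated biopsies left, edgeR called 0 of 10 and 0% of all genes, although 2540 genes had an unadjusted p under 0.05. COL1A1, COL1A2, COL3A1, LUM and DCN were called at no week in these biopsies. The COL1A1 differences were 0.16, 1.23, -0.76, -1.93 and 0.54 at weeks 0, 3, 7, 11 and 15, so their sign varied from week to week. At week 0 COL1A1 ranged from 18.1 to 28.9 CPM in 6 placebo biopsies (median 25.7) and from 21.3 to 45.6 CPM in 8 treated ones (median 25.2). At week 15 it ranged from 14.1 to 34.1 CPM (median 18.6) and from 17.6 to 52.2 CPM (median 32.2), and the groups overlapped. Of these biopsies, the week 7 placebo biopsy of M1009 carried 4749 CPM of skin genes and 251 CPM of COL1A1, and without it the COL1A1 difference at week 7 was 0.23 (adjusted p = 0.75).

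TIMP1 had larger fitted differences in the low-MYH2 biopsies. At week 0 it ranged from 4.59 to 10.8 CPM in 6 placebo biopsies (median 5.95) and from 10.9 to 75.7 CPM in 8 treated ones (median 17.8), so the groups did not overlap, and the difference was 1.81 (adjusted p = 0.0045). At week 7 it was 0.73 (adjusted p = 0.0090), with ranges of 5.02 to 8.81 CPM and 6.76 to 16.8 CPM. At week 15 it was 1.65 (adjusted p = 0.0057), from a placebo range of 2.54 to 7.55 CPM (median 3.98) to a treated range of 6.78 to 26.2 CPM (median 14.7). There 3 of 5 treated biopsies were above the highest placebo biopsy. That one was M1008, whose runs differed most, with 7.55 CPM of TIMP1 and 32.5 CPM of COL1A1, and without it, a choice made after its values had been seen, TIMP1 was at 1.87 (adjusted p = 0.0032) and COL1A1 at 0.69 (adjusted p = 0.134), with 24.1% of all genes called. COL4A1, at 0.63 (adjusted p = 0.0068), was the other gene called at week 0. Leaving out F1013 at week 3, a choice made after its interferon genes had been seen, brought TIMP1 to 1.25 (adjusted p = 0.044) and ACTA2 to 1.13 (adjusted p = 0.022), both called where 7.77% of all genes were, with ACTA2 at 2.28 to 2.95 CPM in 3 placebo biopsies and 4.08 to 8.97 CPM in 5 treated ones.

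Averaged over weeks 0 to 15 in a single fit of all biopsies, 6 of the 10 genes were called against 21.6% of all genes. COL1A1 differed by -2.19 (95% confidence interval -2.96 to -1.42, adjusted p = 4.7e-07), which is 4.56-fold lower under wIFN-α, COL1A2 by -2.01 (SE 0.37, adjusted p = 8.4e-07) and COL3A1 by -1.24 (SE 0.24, adjusted p = 2.1e-06). LUM (-0.82, SE 0.22), DCN (-0.75, SE 0.20) and TIMP1 (0.61, SE 0.16) were the others. COL4A1 (0.38, SE 0.10, adjusted p = 0.00043), ACTA2 (-0.48, SE 0.19, adjusted p = 0.021) and LOXL2 (-0.27, SE 0.11, adjusted p = 0.030) passed on p but were under 1.5-fold, and PDGFRB was at -0.06 (SE 0.09, adjusted p = 0.58). The same animals were sampled again and again in this fit. With the animal as a block in limma-voom, the same 6 genes were called (of all genes, 20.1%), with COL1A1 at -1.33 (adjusted p = 0.014) and TIMP1 at 0.68 (adjusted p = 0.0024).

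In the 55 on-treatment low-MYH2 biopsies, 23 placebo and 32 treated, the mean COL1A1 difference was -0.15 (95% confidence interval -0.59 to 0.29, adjusted p = 0.59), COL1A2 -0.16, COL3A1 -0.19 (adjusted p = 0.14), LUM -0.06 and DCN -0.20. TIMP1 was the only one of the 10 called, at 1.26 (95% confidence interval 0.87 to 1.65, adjusted p = 9.9e-08), where 21.3% of all genes were. COL4A1 was at 0.41 (adjusted p = 0.0017). With the animal as a block, TIMP1 was at 1.19 (adjusted p = 1.4e-05) and COL1A1 at 0.043, where 20.5% of all genes were called.

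The biopsies over 10 CPM of MYH2, 32 placebo and 13 treated, gave calls for the fibrillar collagens and not for TIMP1 when they were fitted alone, with 2593 of 15246 genes called (17%). COL1A1 ranged from 34.2 to 4569 CPM in placebo (median 311) and from 34.1 to 528 CPM under wIFN-α (median 87.6), a difference of -1.81 (95% confidence interval -2.78 to -0.84, adjusted p = 0.0028). COL1A2 (-1.70), COL3A1 (-1.22) and LUM (-0.79) were also called, and TIMP1 was at 0.12 (adjusted p = 0.70). Repeated biopsies of an animal were treated as independent in this fit, so its intervals and p-values may be too small. No fit of this set with the animal as a block was run. MYH2 in these biopsies had medians of 577 CPM in placebo (30.6 to 13010) and 1021 CPM under wIFN-α (150 to 9876), and the ranges overlapped. Without the biopsies over 100 CPM of skin genes, 25 placebo and 12 treated ones were left, and COL1A1 was at -1.42 (adjusted p = 0.020). Over weeks 0 to 15, lower fibrillar collagen was thus called in the biopsies over 10 CPM of MYH2 and not in the others. The former fit held a single treatment term common to these weeks, with 1 treated biopsy at week 7. The latter averaged the weekly differences with equal weight, so the values of these fits are not the same measure. Whether the treatment effect differed between the sets was not tested, and neither was the part of muscle, skin or other connective tissue in it.

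**Figure D5:**
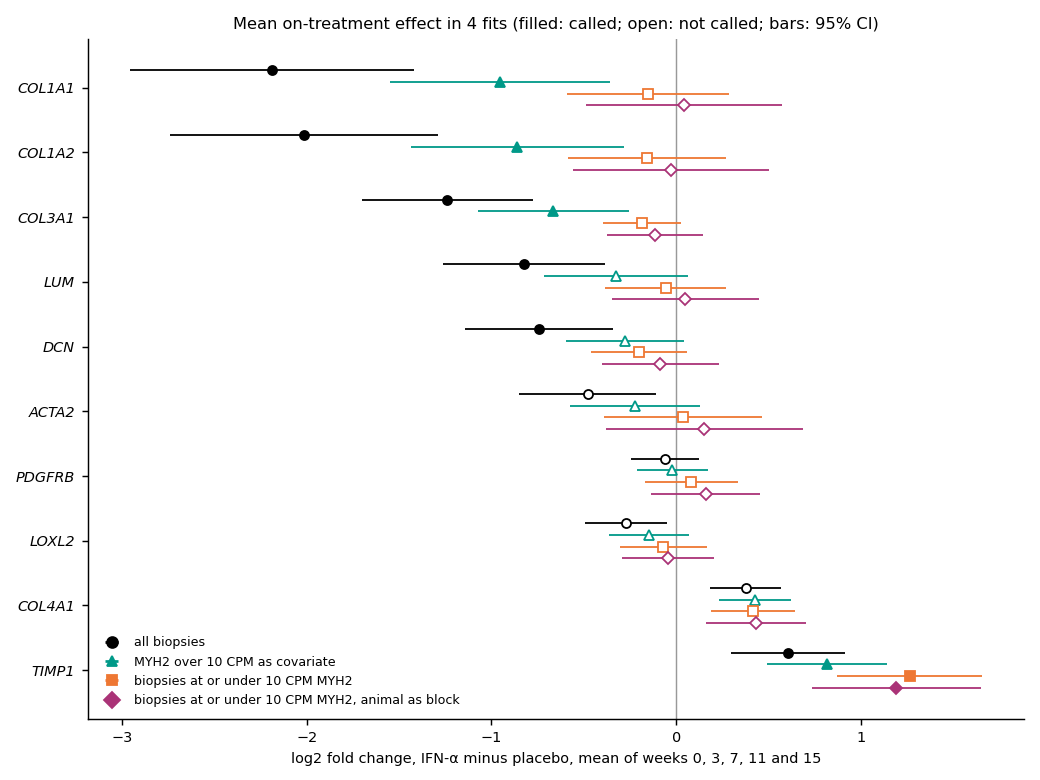
Mean log2 fold change of weeks 0, 3, 7, 11 and 15 (wIFN-α minus placebo, with 95% confidence interval) for each gene in 4 fits, filled where called: all biopsies (black circles), MYH2 over 10 CPM as a covariate (green triangles), biopsies at or under 10 CPM of MYH2 (orange squares) and the same with the animal as a block (purple diamonds). COL1A1 moves from -2.19 through -0.95 to -0.15 and 0.043, whereas TIMP1 moves from 0.61 through 0.82 to 1.26 and 1.19, and COL4A1 lies between 0.38 and 0.43 in each.

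In low-MYH2 biopsies the sums of the T cell and cholangiocyte (bile duct cell) lists moved with TIMP1, and their part in its increase was not tested. Over the same low-MYH2 biopsies of week 15, the summed level of 10 T cell genes was 57.5 to 97.3 CPM in placebo (median 85.6) and 124 to 257 CPM under wIFN-α (median 146), and at week 0 it was 74.4 to 132 CPM (median 87.3) and 108 to 153 CPM (median 127). In all biopsies, 1, 1, 1, 5 and 7 of the T cell genes were called higher at weeks 0, 3, 7, 11 and 15, where 10.3, 7.24, 11.4, 12.6 and 13.4% of all genes were. Their defining genes CD2, CD5 and TRAT1 had medians under 1 CPM. The 10 cholangiocyte genes summed to 123 to 210 CPM in placebo and 219 to 280 CPM under wIFN-α at week 15 in low-MYH2 biopsies, and to 144 to 196 CPM and 195 to 320 CPM at week 0, with 3, 3, 3, 1 and 2 of them called higher at those weeks in all biopsies, against the same shares of all genes. Across the 89 low-MYH2 biopsies, TIMP1 had Spearman correlations of 0.74 with the T cell sum, 0.66 with the cholangiocyte sum and 0.43 with the sum of interferon-stimulated genes, and COL4A1 of 0.59 with the last. For the sums of macrophage, endothelial and hepatocyte genes, the correlations of TIMP1 were 0.38, -0.06 and -0.13. Over all 149 biopsies TIMP1 had 0.45 with the T cell sum, 0.41 with the cholangiocyte sum and 0.19 with the sum of interferon-stimulated genes. COL4A1 had 0.47 with the last. The points share animals, weeks and treatment, so these are descriptions. None of the 24 skeletal muscle genes was called at any week in all biopsies, although at week 3 their sum had medians of 8411 CPM in placebo (297 to 131600) and 447 CPM under wIFN-α (326 to 31280).

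After the last dose TIMP1 was not called. At week 19 it was -0.51 (adjusted p = 0.355), and at week 23 it was -0.69 (SE 0.30, adjusted p = 0.292), from 3.61 to 13.0 CPM in placebo (median 7.32) to 3.12 to 7.59 CPM under wIFN-α (median 5.03). The change of effect from week 15 to week 23 was tested directly, and it called 0 of the 10 genes in all biopsies (of all genes, 24.9%), with TIMP1 at -1.40 (SE 0.57, adjusted p = 0.057) the 1 gene with an unadjusted p under 0.05. DESeq2 and limma-voom each called 1 there, TIMP1. In low-MYH2 biopsies TIMP1 was the 1 gene called there, at -2.31 (adjusted p = 0.00041), against 28.8% of all genes. Repeated biopsies of an animal were treated as independent in this fit, and its treated animals differed between the weeks. M1002 and F1020 entered at week 15 alone, and M1003, M1012 and F1022 at week 23 alone. With the animal as a block in all biopsies, limma-voom called 1 of the 10 genes and a fixed block in edgeR 0. No such fit of this contrast was run in low-MYH2 biopsies. No biopsy of week 23 was over 10 CPM of MYH2, and COL1A1 lay at 13.5 to 45.4 CPM in placebo (median 15.7) and at 13.8 to 29.7 CPM under wIFN-α (median 18.1). At week 19 COL1A1 was at 19.5 to 229 CPM in 5 placebo biopsies and 16.3 to 31.5 CPM in 6 treated ones, a difference of -1.79 (adjusted p = 0.317).

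The comparison of week 15, at the high dose, with weeks 0 and 3, at the low dose, called none of the 10 genes. The dose rose over time in the same animals, so dose and time on treatment cannot be told apart in it. Treated animals also fell from 11 at week 0 to 8 at week 15. The effect at week 15 minus that at weeks 0 and 3 called 0 of 10 by edgeR, DESeq2 and limma-voom and 0 at an unadjusted p under 0.05 (of all genes, 2.26% by edgeR), with COL1A1 at -0.49 (SE 1.04) and TIMP1 at 0.21 (SE 0.45). Within placebo animals, week 15 minus week -3 also called 0 of 10 by each of these tools and 1, ACTA2, at an unadjusted p under 0.05 (of all genes, edgeR called 14.4%), with COL1A1 at 0.91, ACTA2 at -0.93 (adjusted p = 0.085) and DCN at -0.83 (adjusted p = 0.157). These contrasts share the week 15 placebo biopsies with the weekly comparison.

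Before treatment 0 of the 10 genes were called. COL1A1 at week -3 ranged from 17.4 to 1297 CPM in placebo (median 31.9) and from 20.0 to 5628 CPM in the later wIFN-α group (median 45.3), a difference of 1.99 (SE 1.08) whose unadjusted p was 0.078. The highest value came from the biopsy of F1018, which had 16.0% of its reads on muscle genes. COL3A1 was at 1.76 with an unadjusted p of 0.033 and an adjusted p of 1.0. In low-MYH2 biopsies these were -0.12 and -0.08, and without F1018 the value for COL1A1, week -3, was -1.08 (adjusted p = 1.0).

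Other matrix genes were counted in all and in low-MYH2 biopsies, for lists of genes chosen by function. Of 16 other collagens, 0 were called higher and 8 lower for the mean of weeks 0 to 15 in all biopsies, with a median of -0.57 against -0.05 for all genes, and 1 higher and 2 lower in low-MYH2 biopsies (median -0.03). Of 31 matrix glycoproteins and proteoglycans, 1 was called higher and 11 lower (median -0.33), and 2 and 2 in low-MYH2 biopsies (median -0.08). Of 16 collagen-processing enzymes, 0 were called higher and 6 lower (median -0.34), and 0 and 3 in low-MYH2 biopsies. Of 17 matrix turnover genes (metalloproteinases, their inhibitors and plasminogen activators), 2 were called higher and 9 lower (median -0.61), and of 16 tested in low-MYH2 biopsies 2 and 4 (median -0.13). For comparison, 11.2% of all genes were called higher and 10.4% lower in all biopsies, and 12.5% and 8.79% in low-MYH2 biopsies.

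COL8A1 and MMP11 were among the members of these lists called lower at week 15 both in all and in low-MYH2 biopsies. COL8A1, a short-chain collagen of vessel walls, was lower by -2.10 (SE 0.48, adjusted p = 0.0019) in all biopsies and by -2.03 (adjusted p = 0.022) in low-MYH2 biopsies. The metalloproteinase MMP11 was at -1.29 (SE 0.23, adjusted p = 0.00023) and -1.50. At the same week THBS2 (-1.78 and -0.41), MMP2 (-2.66 and -0.52) and ADAMTS2 (-0.88 and -0.22), the last a procollagen peptidase, were called in all biopsies and not in low-MYH2 biopsies. At week 11, however, THBS2 (-2.22, adjusted p = 0.039) and MMP2 (-2.43, adjusted p = 0.020) were called lower in low-MYH2 biopsies, from 2 placebo and 5 treated biopsies. COL5A1, the chain that nucleates collagen fibrils, was called lower at 5 of 5 treatment weeks in all biopsies and, of those weeks, at week 0 alone in low-MYH2 biopsies, with -0.58 at week 15.

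Of 13 contractile genes, 1 was called higher and 0 lower at week 15 in all biopsies and 3 and 0 in low-MYH2 biopsies, where 13.4% of all genes were called higher and 8.83% lower in all biopsies and 13.5% and 9.05% in low-MYH2 biopsies. MYLK, the myosin light chain kinase, was called at 5 of 5 treatment weeks in all biopsies, and in low-MYH2 biopsies at each of these but week 3 (1.25). At week 15 it ranged from 65.0 to 87.6 CPM in placebo and from 195 to 278 CPM under wIFN-α without overlap. The difference was 1.68 (SE 0.08, adjusted p = 8.7e-12) and 1.65 in low-MYH2 biopsies. PLAT, the tissue plasminogen activator, was at 1.67 (SE 0.24, adjusted p = 2.7e-05), with medians of 5.66 and 17.3 CPM. ADAMTS1, a protease that cleaves versican, was at 1.37 (SE 0.23, adjusted p = 0.00013), whereas its substrate VCAN was at 0.59 and not called at that week. VCAN was called higher at week 7 (1.89) and week 11 (1.41, adjusted p = 0.023) in all biopsies, and at week 0 (1.85, adjusted p = 0.00066), week 7 (3.19) and week 15 (2.74, adjusted p = 0.0021) in low-MYH2 biopsies.

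Of 26 genes of TGF-β and PDGF signalling, 2 were called higher and 3 lower at week 15, both in all and in low-MYH2 biopsies, against the same shares of all genes. SMAD3, a transducer of TGF-β signals, was called higher at 5 of 5 weeks in all biopsies. At week 15 it ranged from 23.4 to 45.5 CPM in placebo and from 46.2 to 74.9 CPM under wIFN-α without overlap (1.10, SE 0.14, adjusted p = 3.8e-06). TGFBR3, the TGF-β co-receptor betaglycan, was called lower at 5 of 5 weeks in all biopsies. At week 15 it had 7.93 to 20.8 CPM and 3.37 to 5.18 CPM (-1.58, SE 0.20, adjusted p = 4.1e-06), and again the groups did not overlap. In low-MYH2 biopsies SMAD3 was at 1.03 and TGFBR3 at -1.31 at week 15, both called. At week 3, where 0% of all genes were called there, they were at 0.90 and -0.39. At week 11 SMAD3 was at 0.77 and not called, and TGFBR3 was at -1.89 and called. Of 17 genes of quiescent stellate cells, 2 were called higher and 1 lower at week 15. The higher ones were HAND2 (0.93, adjusted p = 0.010), a transcription factor, at 0.87 and not called in low-MYH2 biopsies, and ANGPTL6 (0.61, adjusted p = 0.00038), at 0.62 there. The lower one was LRAT, the enzyme that stores retinol as esters, at -0.85 (adjusted p = 0.0079) and at -1.18 (adjusted p = 0.0013) in low-MYH2 biopsies.

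Among themselves the fibrillar collagens varied together and COL4A1 apart. After group means were removed, COL1A1 and COL1A2 had a Spearman correlation of 0.97 over the 125 biopsies with at most 1% muscle reads and of 0.93 over the 89 low-MYH2 biopsies. COL1A1 and COL3A1 had 0.88 and 0.73, and COL1A1 and COL4A1 0.35 and 0.35. Of 13920 genes, those nearest to the mean of the 3 fibrillar collagens were MMP2 (0.92 and 0.80), COL6A3 (0.89 and 0.81), FAP (0.88 and 0.78), FBN1 (0.86 and 0.78) and OGN (0.84 and 0.59). The nearest gene to COL4A1 was COL4A2 (0.68 and 0.61), its partner chain, to DCN it was TIMP2 (0.90 and 0.86), to ACTA2 the smooth muscle gene TAGLN (0.83 and 0.77), to PDGFRB KIRREL (0.80 and 0.81), and to TIMP1 the chemokine CCL2 (0.76 and 0.75). The biopsies of an animal share that animal, and each library shares its depth between genes, so these are descriptions.

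Each biopsy was given the lane number in the label of its deepest run. Of the 100 on-treatment biopsies, 23 also had a run under another lane number. The same index sequence recurs under the same lane number in different samples. A lane number thus pools several flow cells that the labels do not name, and the values below are not differences within a physical lane. Under the 7 lane numbers that held on-treatment biopsies of both arms, the mean difference in log2(CPM + 1) of COL1A1 was negative for 6 of 7 (-2.68 to 0.27). COL4A1 was higher for 7 of 7 lane numbers (0.02 to 0.74) and TIMP1 for 6 of 7 (-0.22 to 1.36).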

How the data were processed

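Liver biopsies were sequenced as poly(A) RNA with paired-end reads of 50 nucleotides. Per the study's methods, the authors mapped them with Bowtie2 to their own woodchuck liver transcriptome assembly, counted them with SAMtools and processed the counts with DESeq. The kit does not mark strand, so overlapping genes cannot be told apart. The deposited tables hold, per sequencing run and gene, an RPKM value, used here only for transcript lengths, and an expected count. Of 3368023 nonzero expected counts in the deposited tables, 118 were fractional. The runs of a biopsy (203 runs, 164 biopsies) were summed and rounded, and reads on the virus were not part of library sizes or tests.

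Each week was tested with edgeR 4.0.16 (filterByExpr, TMM, quasi-likelihood test, Benjamini-Hochberg adjustment over all 14700 to 15006 genes tested), and contrasts between weeks and the mean of weeks 0 to 15 in a single fit of 16232 genes. Calls needed a fold change over 1.5 and an adjusted p under 0.05, or that p alone for contrasts between effects. DESeq2 1.42.0 and limma-voom 3.58.1 were alternatives, as were other size factors, no filter, the deepest run, sex, M1004, muscle covariates and leaving out animals. CPM used TMM-scaled library sizes. The scripts were tested on simulated data. The 10 genes and all lists were chosen with earlier results of these data known. The levels of 10 CPM for MYH2 and 100 CPM for the skin list, the mean of weeks 0 to 15 and the removal of F1013 and of M1008 were chosen after the values were seen. Other genes were named from up to 4 genes per list and direction with the largest difference at week 15, among those averaging at least 1 CPM and called at week 15 or at 2 or more treatment weeks, or as nearest by rank correlation.

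Same-numbered biopsies come from the same animal: the deviations from group means had a median correlation of 0.31 over 450 same-animal pairs (327 over 0.1) and -0.0075 over 9201 pairs of different animals.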

Additional observations from a re-analysis of the deposited data

Results flagged for a closer look

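Of 100 groups of 4 to 10 biopsies examined over the 10 genes, 6 had a biopsy far from the rest (Dixon's criterion, which chance meets in about 1 in 20 groups), and 3 of these 6 values came from biopsies over 10 CPM of MYH2. The wIFN-α animal M1012 supplied 5 of them. At week 11 it had 306 CPM of COL1A1 (the other 7 treated biopsies 16.9 to 60.8) and 705 CPM of COL3A1 (146 to 266), with 2760 CPM of MYH2, and at week 3 it had 33.3 CPM of ACTA2 (4.08 to 8.97), with 1265 CPM of MYH2. At week 23 M1012 had 37.8 CPM of COL1A2 (19.1 to 21.9) and at week 7 it had 169 CPM of COL4A1 (106 to 131), both in low-MYH2 biopsies. The remaining one was low: F1018 at week 19 had 2.40 CPM of ACTA2, whereas the other 5 treated biopsies had 4.58 to 5.96.

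Among biopsies that entered no comparison, LOXL2 was above the highest placebo biopsy (35.7 CPM) in M1006 (40.3 CPM, week 2), F1020 (38.5 CPM) and F1023 (76.3 CPM). TIMP1 in F1023 was at 281 CPM against a highest placebo value of 43.9 CPM. The samples of F1020 and F1023 were labelled as from animals that had died, and the paper reports that M1006 was euthanized in failing health. In the likewise labelled samples of M1007 (wIFN-α) and F1024 (placebo), LOXL2 was at 17.0 and 9.04 CPM. The part of illness or death in these values was not tested.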

How the results depend on the processing

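Counts are of the 10 genes, and the cause of these changes was not tested. Of all genes, limma-voom called 2731 of 14700 at week 0, 1538 of 15006 at week 3 and 3298 of 14943 at week 15. In low-MYH2 biopsies 17.9, 0, 20.6, 8.89 and 22.5% of all genes were called at weeks 0, 3, 7, 11 and 15. Where no share of all genes is given for a setting or a left-out animal, a changed count cannot be read as particular to the 10 genes. At week 0 (2 called), 1 was called by limma-voom, at a fold change above 2, with M1004 and in a fit of all weeks. At week 3 (4 called), 0 were called by limma-voom, without the biopsies over 1% muscle reads, with MYH2 as a covariate and without biopsies over 10 CPM of MYH2, and 2 when F1013 was also left out. At week 7 (6 called), 2 were called at a fold change above 2, 3 with the MYH2 covariate, 1 in low-MYH2 biopsies with or without skin, and 0 with MYH2 over 10 CPM as a covariate and in a fit of all weeks. At week 11 (1 called), 2 were called by DESeq2, with M1004 and with sex, 6 without the biopsies over 1% muscle reads, and 0 with either MYH2 covariate or in low-MYH2 biopsies. At week 15 (3 called), 0 were called by limma-voom, with sex and without the biopsies over 1% muscle reads, and 1, TIMP1, with either MYH2 covariate and in low-MYH2 biopsies with or without M1008. For week 23 minus week 15 (0 called), 1, TIMP1, was called by DESeq2 and limma-voom, with M1004 and in each of the settings on MYH2 or muscle reads. For the mean of weeks 0 to 15 (6 called), 3 were called at a fold change above 2 and 1, TIMP1, in low-MYH2 biopsies, with F1013 or the skin biopsies out as well.

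With the animal as a replicate block, 1, 1, 0, 1 and 1 genes were called at weeks 0, 3, 7, 11 and 15, 1 for week 23 minus week 15 by limma-voom but 0 with a fixed block in edgeR, 6 for the mean in all biopsies and 1 in low-MYH2 biopsies. The block changed no other count of called genes. Leaving out each animal in turn gave 1 to 4 called at week 0 (4 without F1023), 0 to 5 at week 3, 5 to 7 at week 7, 1 to 6 at week 11 (6 without M1012), 0 to 3 at week 15 and 0 to 0 at weeks -3, 19 and 23. Placebo animals were left out at weeks 15 and 19 alone.

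The sign turned against a call in 20 values. At week 3, low-MYH2 biopsies gave COL1A1 1.23, COL1A2 1.22, COL3A1 0.63 and LUM 0.30, and without F1013 also COL1A1 1.38, COL1A2 1.37, COL3A1 0.70, LUM 0.35, ACTA2 1.13 and TIMP1 1.25. At week 7, COL1A1 was 0.23 without the MYH2 and skin biopsies, and at week 15 low-MYH2 biopsies gave COL1A1 0.54 and COL1A2 0.42, and without M1008 also COL1A1 0.69, COL1A2 0.55 and COL3A1 0.014. For the mean of weeks 0 to 15, COL1A1 was 0.056 without the skin biopsies and, with the block, COL1A1 was 0.043 and LUM 0.050 in low-MYH2 biopsies. In biopsies over 10 CPM of MYH2 without skin, TIMP1 was -0.071, from a single treatment term common to weeks 0 to 15. Of 2620 values of single genes under alternatives, a further 160 changed sign without being called in either fit. Depth limits little here: the least deep biopsy had 12072840 reads on genes.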

Other observations

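The animal set aside in the study, M1004, had high fibrillar collagen in a biopsy that held little muscle: at week 7 it had 250.4 CPM of COL1A1, 259 CPM of COL1A2 and 421 CPM of COL3A1 at 1.11 CPM of MYH2. In the low-MYH2 biopsies of the comparisons the highest COL1A1 value was 251 CPM, in the skin-containing biopsy of M1009.

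Proliferation genes, which the text on the matrix genes has not yet described, were called higher in 12 of 12 cases at weeks 11 and 15, against 12.6% and 13.4% of all genes. At week 0, 7 of the 12 were called lower, against 8.15% of all genes. At week 15 their sum ranged from 29.2 to 73.1 CPM in placebo (median 42.5) and from 41.1 to 274 CPM under wIFN-α (median 132), and over the 89 low-MYH2 biopsies it had a Spearman correlation of 0.56 with TIMP1, a description over biopsies that share animals and weeks.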
